A study of Apis mellifera with 3 samples.

Results

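The genes described here encode the machinery that writes, reads and packs chromatin in the honeybee: DNA methyltransferases, histone-modifying enzymes, histones, and the remodelers and readers that act on nucleosomes. Members were chosen by words in the best protein match deposited for each sequence (histone, DNA methyltransferase, DNA (cytosine-5), methyl-CpG, chromodomain, bromodomain, polycomb, trithorax, chromatin, SWI/SNF or sirtuin). This gave 119 of 21441 transcript sequences, matching 89 distinct proteins, and 115 of them were read in every library. Of the 119, 75 had their best match in Apis mellifera and 44 in another species, so a name states what a sequence resembles. By the words of the match, 5 sequences belonged to DNA methylation, 43 to histone-modifying enzymes, 15 resembled the fusion protein SETMAR, 14 were histones, 3 were histone-binding or histone-supply factors and 38 were remodelers and readers. The last sequence, chromatin modifying protein 1 (NP9553037), matched by its word alone.

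The RNA came from hypopharyngeal glands, the paired head glands with which worker bees make the protein fraction of royal jelly. All bees were full sisters of the strain Apis mellifera carnica Pollmann, bred from instrumentally inseminated queens, and 30 bees were pooled per sample. The 3 samples, each 1 library, are labelled winter bee, spring bee and retired bee, with labelled ages of 3, 6 and 9 days after emergence. Those ages are given as the labels have them, and season, labelled age and work status cannot be told apart. The labels give the tissue as glands, whereas the series text speaks of pooled heads. With n = 1 library per group there is no replicate check on any difference below, and the intervals compare libraries and cover counting error only.

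Bees carry both families of DNA methyltransferase known from mammals: DNMT3-type enzymes place new methyl groups on cytosines and DNMT1-type enzymes copy existing methylation after replication. In the honeybee, DNA methylation lies mostly in gene bodies, and lowering Dnmt3 in larvae is known to shift development towards queen traits. Histone acetyltransferases and deacetylases open and close chromatin, while Trithorax and Polycomb proteins keep genes in active or silent states.

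Libraries held 3.85 M uniquely mapped reads for winter, 3.29 M for spring and 3.18 M for retired bees. Levels are in RPKM, reads scaled by sequence length and library total, and for a transcript of 1 kilobase 3 reads correspond to 0.78 to 0.944 RPKM. Marker lists of the gland and of other cells were read by words of the match, and sequences whose match went against the list's name (such as non-muscle myosin) were left out after seeing the matches. Royal jelly proteins and honey enzymes, the markers of the gland itself, took 9.82% of winter reads, 22.3% of spring reads and 23.3% of retired reads over 62 sequences. These did not all move the same way. Alpha-glucosidase Hbg3 (TC20807) had 7019 RPKM in winter, 875 in spring and 13882 in retired bees, whereas Mrjp2 (TC24109) had 11712, 58884 and 46801. Neuron markers summed to 2070 RPKM in winter, 1626 in spring and 1728 in retired bees, with 0 of 20 sequences at 0. Muscle markers summed to 771 RPKM in winter, 560 in spring and 814 in retired bees over 37 sequences, of which 1, 0 and 1 were at 0. Markers of dividing cells summed to 207 RPKM in winter, 212 in spring and 183 in retired bees over 21 sequences, of which 2, 2 and 0 were at 0. Photoreceptor markers summed to 173, 147 and 307 RPKM in winter, spring and retired bees, fat body markers to 409, 343 and 318, and hemocyte markers to 139, 114 and 86.7. The photoreceptor and fat body lists were not uniform either. Long-wavelength rhodopsin (TC16465) had 19.7, 7.64 and 76.0 RPKM in the same order, whereas opsin Lop2 (TC23573) had 12.2, 8.93 and 7.48. Vitellogenin (TC12290) had 51.8, 9.69 and 9.39 RPKM, whereas the apolipophorin-III-like sequence TC13121 had 10.3, 24.0 and 41.5. The part of these cell types in the differences below was not tested, and in pooled tissue fewer cells of a type and less RNA per cell cannot be told apart.

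A sequence was compared where it had at least 60 reads over the 3 libraries together. It was called higher or lower where its reads per library total differed at least 1.5-fold and the exact 95% interval of the ratio lay on 1 side of 1. Of the 119 members, 88 passed the minimum and 31 did not. The 31 were 3 sequences of DNA methylation, 9 histone enzymes, 3 SETMAR-like sequences, 9 histones and 7 remodelers and readers.

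Relative to the winter library, the spring library held more chromatin sequences at a lower than at a higher level. Among the 88 members, 1 was called higher (1.14%), against 4.26% of all 11794 sequences past the minimum and 5.07% of those with a protein match, and 16 were called lower (18.2%), against 16.2% of all sequences and 13.0% of those with a protein match. The median log2 ratio was -0.27 over the members and -0.26 over all sequences. The share called lower thus lay near the background and is no result about chromatin genes as such. Setting the median of all sequences to a ratio of 1 shifted every log2 ratio up by 0.26 and left 3 members called higher (3.41%, against 8.62% of all sequences under the same rescaling) and 8 called lower (9.09%, against 5.82%).

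Retired bees, too, held more members at a lower than at a higher level relative to winter bees. Here 1 member was called higher (1.14%, against 2.98% of all sequences and 3.61% of those with a protein match) and 16 were called lower (18.2%, against 16.8% of all sequences and 13.8% of those with a protein match), with a median log2 ratio of -0.31 over the members and -0.26 over all. The rescaling to a median ratio of 1, again a shift of 0.26, gave 4 higher calls (4.55%, against 6.81% of all sequences under the same rescaling) and 7 lower calls (7.95%, against 6.25%). This comparison shares its winter library with that of spring and winter, so the calls are not separate evidence.

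Between retired and spring bees few chromatin sequences differed. No member was called higher, against 3.79% of all sequences and 3.80% of those with a protein match. A single member, 1 of 88, was called lower (1.14%, against 4.59% of all sequences and 4.30% of those with a protein match), the histone methyltransferase trithorax. The median log2 ratio was -0.05 over the members and -0.03 over all sequences.

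Winter was the library with the highest value for 59 of the 88 members (67%), and for 65.5% of all sequences past the minimum. Together the members took 0.551% of reads in winter, 0.436% in spring and 0.425% in retired bees.

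**Figure D1:**
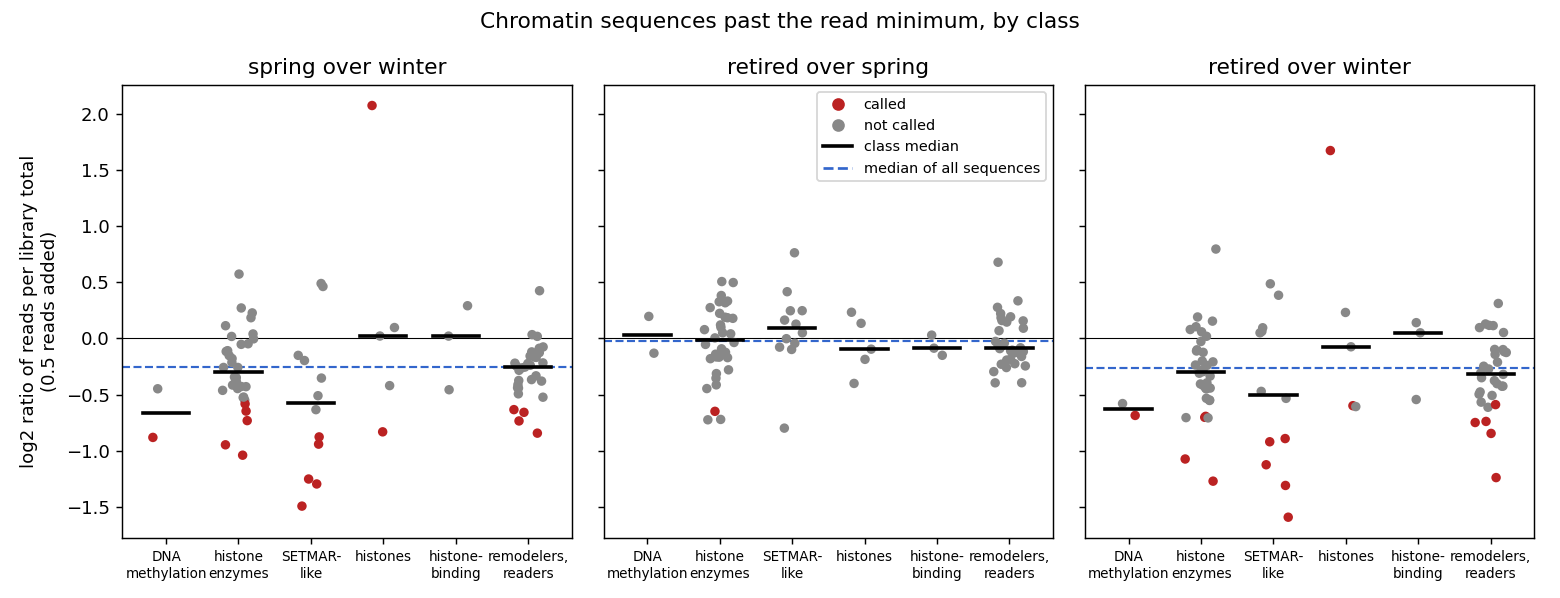
Log2 ratio of reads per library total for the 88 members past the read minimum, less the 1 word match outside the 6 classes, in the 3 comparisons. Each point is 1 sequence, black bars are class medians and the dashed line is the median of all sequences. In spring over winter and retired over winter most points lie below 0, close to the dashed line, with lower medians for DNA methylation (-0.66 and -0.63, 2 sequences) and SETMAR-like sequences (-0.57 and -0.50), and with 1 histone at 2.07 and 1.67.

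DNA methylation was represented by a pair of enzymes and a methyl-binding protein. DNA methyltransferase 3 (Dnmt3, NP9551759), the enzyme of new methylation, stood at 33.4 RPKM in winter, 18.1 in spring and 20.7 in retired bees, from 242, 112 and 124 reads that covered 90.0%, 79.9% and 82.1% of its length. The winter library was the high one and the 2 others lay close together. Dnmt3 was 1.85-fold lower in spring than in winter bees (interval 1.47 to 2.33), and 6.41% of all sequences had a ratio as low or lower. This call was kept under both rescalings used here, which set the median ratio to 1 or leave 60 royal jelly and other very abundant sequences out of the library totals. In retired bees it was 1.61-fold lower than in winter bees (1.29 to 2.02), a call lost under both rescalings, and 1.15-fold higher than in spring bees (0.88 to 1.49), which was not called. A second, short sequence matching Dnmt3 (BI516483) had 3 reads in winter, 0 in spring and 1 in retired bees, too few to compare.

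The other enzyme matched the cytosine-5 methyltransferase PliMCI (NP9546503), named after the sea urchin enzyme of the DNMT1 type. Its level was 14.7 RPKM in winter, 10.8 in spring and 9.85 in retired bees. It was 1.37-fold lower in spring than in winter bees (1.11 to 1.68) and 1.497-fold lower in retired than in winter bees (1.21 to 1.86), just under the threshold, so neither was called. Per base of sequence, Dnmt3 had 2.27 times the reads of the PliMCI-type enzyme in winter (1.89 to 2.72), 1.68 times in spring (1.30 to 2.16) and 2.11 times in retired bees (1.64 to 2.71). Those intervals overlap. Methyl-CpG-binding domain protein 3, of the family that includes the readers of methylated DNA, was near the limit of detection: TC13606 had 6 reads in winter, 7 in spring and 6 in retired bees, and TC21011 had 2, 2 and 1.

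Histone-modifying enzymes were called lower about as often as all sequences were. Of the 34 past the minimum, 0 were higher and 5 (14.7%, against 16.2% of all sequences) lower in spring than in winter bees, 0 higher and 1 lower in retired than in spring bees, and 0 higher and 4 (11.8%, against 16.8%) lower in retired than in winter bees. Their median log2 ratios were -0.30, -0.02 and -0.30. Over all sequences, 4.26%, 3.79% and 2.98% were called higher in the same order, and 4.59% lower in retired than in spring bees.

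Among the acetyltransferases, which add acetyl groups to histone tails, 2 of 5 (40%) were lower in spring than in winter bees, against 16.2% of all sequences, a count too small to set the group apart. MYST1 (TC16264), the relative of Drosophila mof that acetylates histone H4, reached 56.3 RPKM in winter, 29.2 in spring and 41.4 in retired bees. It was 1.93-fold lower in spring than in winter bees (1.58 to 2.37), under both rescalings too. Retired bees stood between the others: 1.42-fold above spring (1.14 to 1.78) and 1.36-fold below winter (1.13 to 1.63), both under the threshold of 1.5. KAT2A (TC19219), the Gcn5-type enzyme of the SAGA coactivator complex, had 20.8 RPKM in winter, 9.95 in spring and 12.6 in retired bees, from only 44, 18 and 22 reads. The spring value was 2.09-fold lower than the winter one (1.18 to 3.84), a call lost after rescaling to the median. The type B acetyltransferase (NP9550861), which acts on newly made histones, was 2.15-fold lower in retired than in winter bees (1.16 to 4.19), from 15 and 39 reads, and lost its call under both rescalings. Tip60 and p300-like sequences were not called in any comparison.

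Deacetylases, which remove those acetyl groups, were listed with subunits of their complexes, SAP30 (TC16754) and SDS3-like (TC12560). The group had a median log2 ratio of 0.02 between spring and winter over 7 sequences, where all sequences had -0.26. The summed reads of all 11 sequences of the group were 1.25-fold lower in spring than in winter bees (1.18 to 1.33). The 1 called of the 7 was histone deacetylase 4 (TC13133), a class II enzyme known in mammals as a corepressor in muscle and neurons. It stood at 101 RPKM in winter, 64.8 in spring and 69.3 in retired bees. That is 1.57-fold lower in spring than in winter bees (1.43 to 1.72), a call that both rescalings ended. A further sequence with a histone deacetylase 4-like match (CK629449) was not called, at 86.2 RPKM in winter, 88.6 in spring and 72.9 in retired bees. Rpd3 (TC23099), the class I deacetylase, had 26.2 RPKM in winter, 26.6 in spring and 21.3 in retired bees, without a call. Histone deacetylase 6 (TC15958), largely a cytoplasmic tubulin deacetylase in mammals, had 30.7, 33.1 and 30.1 RPKM in winter, spring and retired bees.

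None of the 5 sirtuins past the minimum, a family of NAD-dependent deacylases, was called in any comparison. Sirtuins were counted as histone-modifying enzymes by name alone, sirtuin-4 (TC14615) and sirtuin-5 (TC12950) included. The name does not show that a sequence acts on histones. Sirtuin-6 (TC13797) had 49.6 RPKM in winter, 36.8 in spring and 40.0 in retired bees, sirtuin-2 (TC19038) 35.5, 29.7 and 37.0, and sirtuin-7 (TC19635) 21.7, 20.0 and 18.7. Sirtuin-6 was 1.35-fold lower in spring than in winter bees (1.11 to 1.63). A sequence matching sirtuin-1 was not analysed here.

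Of the 4 demethylases, which remove methyl groups from histones, 2 were called lower in spring than in winter bees, against 16.2% of all sequences and 13.0% of those with a protein match. The median log2 ratio of the 4 was -0.57, against -0.26 over all sequences, and 4 sequences are too few to set the group apart. For the jmjC domain-containing demethylation protein (TC15925) the levels were 21.1 RPKM in winter, 12.7 in spring and 15.9 in retired bees, a 1.66-fold lower value in spring than in winter bees (1.34 to 2.07). A relative of lysine-specific demethylase 1A (TC21791) was 1.51-fold lower in spring than in winter bees (1.02 to 2.25). Rescaling ended both calls. A UTY-like demethylase fragment (BI513375), by name a relative of mammalian enzymes acting on Polycomb-marked histone H3, was lowest in retired bees, at 36.4 RPKM in winter, 24.7 in spring and 14.9 in retired bees. Its retired value was 2.44-fold below winter (1.53 to 4.01), also under both rescalings, and 1.66-fold below spring with an interval that spans 1 (0.993 to 2.84).

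Histone methyltransferases, counted with the complex subunit ASH2 (NP9549497), gave 0 calls among 12 between spring and winter. Of all sequences, 4.26% were called higher there and 16.2% lower. Trithorax (TC14047), which methylates histone H3 at active genes, was the 1 member called between retired and spring bees, with 41.0 RPKM in winter, 39.5 in spring and 25.2 in retired bees, from 1575, 1297 and 799 reads over 91.8%, 93.95% and 79.7% of its length. Spring bees were 1.04-fold lower than winter bees, with an interval that spans 1 (0.964 to 1.12). In retired bees it was 1.57-fold lower than in spring bees (1.44 to 1.72). The rescalings shift that comparison by only 0.03 and 0.01 on the log2 scale, too little to end this call. Trithorax was 1.63-fold lower in retired than in winter bees (1.49 to 1.77), a call that both rescalings ended. Other histone methyltransferases were not called between retired and spring bees. SETD1B-like (TC17895) stood at 24.2 RPKM in winter, 23.4 in spring and 22.5 in retired bees, and the trithorax-related trr sequence (NP9546628) at 15.7, 11.7 and 10.7, with no call. The H3 lysine-79 methyltransferase-like sequence (NP9550899), of the Dot1 type linked to transcribed genes, had 32.3, 23.7 and 23.8 RPKM in winter, spring and retired bees. Setd3-like (TC13035), counted here by the words of its match alone, had 49.8, 56.5 and 50.4 RPKM in the same libraries. The enzymes of silent chromatin SETDB1 (TC23160) and EHMT1-like (NP9551699) had 19.9, 17.6 and 13.8 RPKM, and 14.3, 14.3 and 10.7 RPKM, in the same library order, and neither was called. NSD2-like (NP9545463) was 1.62-fold lower in retired than in winter bees (1.18 to 2.25), a call that both rescalings ended.

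On the silent side, Enhancer of zeste (TC21230), the Polycomb methyltransferase of histone H3, had 39.8 RPKM in winter, 28.9 in spring and 32.8 in retired bees. It was 1.38-fold lower in spring than in winter bees (1.16 to 1.64), below the threshold. Its partners eed (TC12879) and suz12 (TC17524) had 8.09 to 10.9 and 9.28 to 11.3 RPKM, without calls. Over the 7 sequences past the minimum whose match names Polycomb or E(z), 0 were called between spring and winter. Of all sequences, 4.26% were called higher there and 16.2% lower. Of the 7, 1 matched enhancer of polycomb homolog 1 and was listed by its word. In retired bees 1 of the 7 (14.3%, against 16.8% of all sequences) was lower than in winter bees: Scm (TC12783), 1.69-fold (1.26 to 2.27). Both rescalings ended that call.

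**Figure D2:**
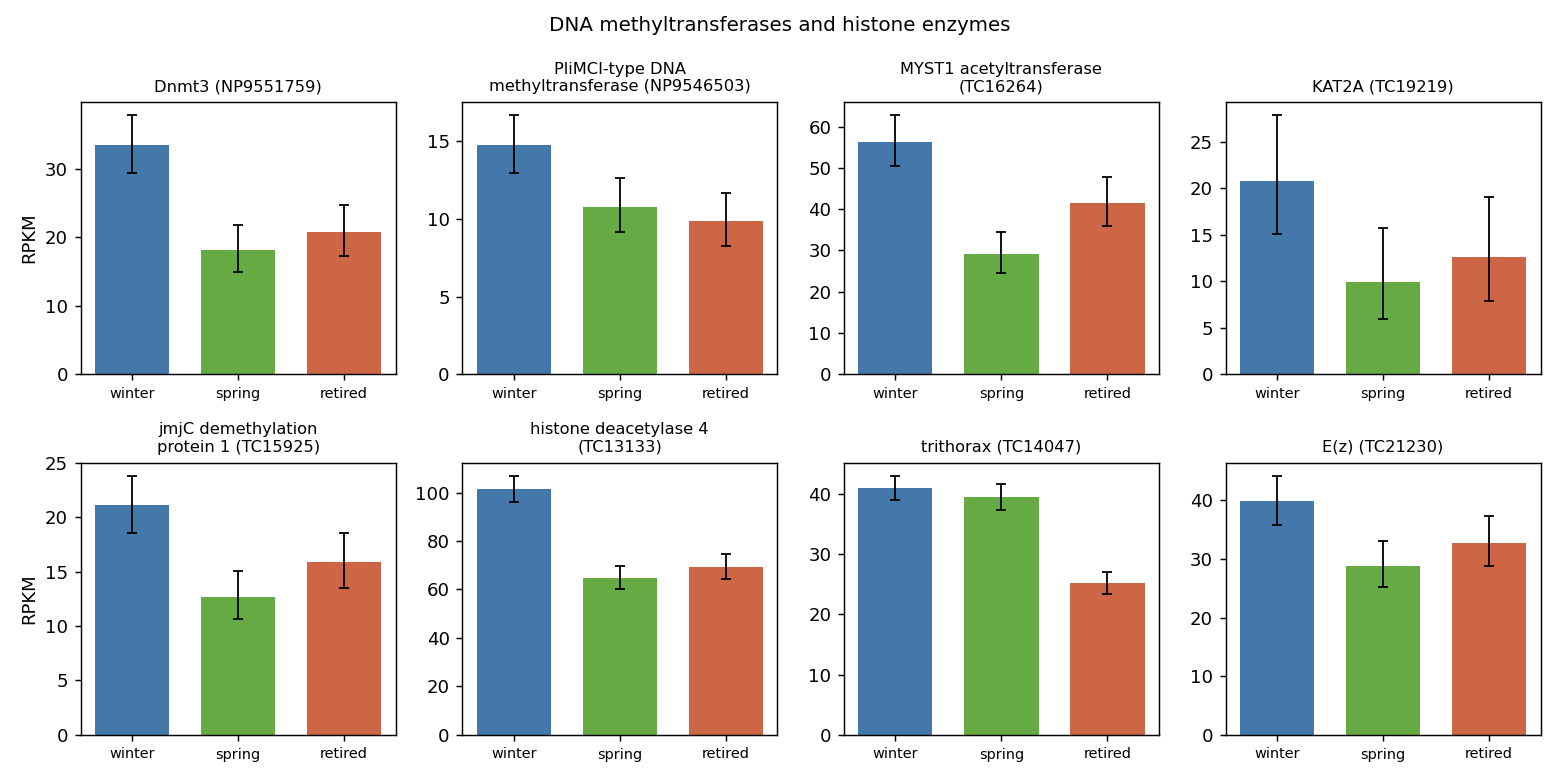
RPKM in each library for the DNA methyltransferases and 6 histone enzymes, with exact 95% Poisson intervals as bars, from axes that start at 0. Dnmt3, MYST1, KAT2A, the jmjC protein and histone deacetylase 4 are highest in winter, while trithorax is level between winter and spring and lower in retired bees at 25.2 RPKM.

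Of the 12 SETMAR-like sequences past the minimum, 5 (41.7%) were lower in spring than in winter bees, against 16.2% of all sequences, and no test sets them apart. SETMAR in primates joins a histone methyltransferase domain to a mariner transposase, and the tables do not say which part each bee sequence matched. As many, 5, were lower in retired than in winter bees, against 16.8% of all sequences. The median log2 ratios were -0.57 and -0.50 in the 2 comparisons, against -0.26 over all sequences in each. Between retired and spring bees 0 were called, where 3.79% of all sequences were called higher and 4.59% lower. The class took 0.0682% of reads in winter, 0.0413% in spring and 0.0452% in retired bees. TC22980 had the highest level, at 223 RPKM in winter, 93.5 in spring and 102 in retired bees. That was 2.38-fold lower in spring than in winter bees (2.14 to 2.66) and 2.18-fold lower in retired than in winter bees (1.96 to 2.43). TC24094 had 129 RPKM in winter, 70.2 in spring and 68.1 in retired bees, NP9546267 had 21.7, 7.59 and 7.07, and TC18700 had 40.9, 21.2 and 21.9. Each of these was lower in both libraries than in winter. NP9546267 had the lowest ratio of the 88 members in both comparisons with winter, 2.86-fold lower in spring (1.72 to 4.98) and 3.07-fold lower in retired than in winter bees (1.80 to 5.50). TC18488 was 2.49-fold lower in spring than in winter bees (1.53 to 4.19), and BI515929 2.55-fold lower in retired than in winter bees (1.30 to 5.36). All of these calls were kept under both rescalings. TC22980, TC24094 and TC18488 share 1 best match, and their summed reads were 2.26-fold lower in spring than in winter bees (2.06 to 2.48).

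The class was not uniform. TC21072 stood at 99.8 RPKM in winter, 89.9 in spring and 107 in retired bees, and TC20694 at 38.2, 53.7 and 53.6, which put it 1.40-fold above winter in spring bees (1.01 to 1.96), without a call. Leaving the 15 SETMAR-like sequences out, 11 of 76 members (14.5%) were lower in spring than in winter bees. That lay near the background, 16.2% of all sequences and 13.0% of those with a protein match.

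Histones, the proteins that DNA winds around, included the 1 higher call of each comparison with winter. The H3.2-like sequence TC19708 had 5.64 RPKM in winter, 24.4 in spring and 18.4 in retired bees, from 13, 48 and 35 reads that covered 59.9%, 84.3% and 84.3% of its length. Winter was low and the other libraries lay close together, 1.33-fold lower in retired than in spring bees (0.84 to 2.11). It was 4.32-fold higher in spring than in winter bees (2.30 to 8.69) and 3.26-fold higher in retired than in winter bees (1.68 to 6.72). Both rescalings raise every ratio with winter in it, so they could not end these higher calls. Its best match is a fish protein, and histone H3 copies are so alike that unique mapping can split or drop their reads, so its identity is uncertain. Per the labels the RNA was selected with oligo-dT, and replication-dependent histone messages mostly lack such tails.

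H3.3, the replacement variant made outside replication, matched TC14096, which stood at 63.1 RPKM in winter, 67.4 in spring and 74.0 in retired bees without a call. A shorter H3.3 sequence (TC15211) had 16.8, 12.5 and 10.9 RPKM in winter, spring and retired bees, and H2A (TC17292) had 50.0, 50.7 and 47.4, also without calls. H2A.V (TC13352), the variant that serves silencing and repair in Drosophila, had 49.1 RPKM in winter, 27.5 in spring and 32.3 in retired bees. It was 1.79-fold lower in spring than in winter bees (1.32 to 2.43), a call lost when the median ratio was set to 1, and 1.52-fold lower in retired than in winter bees (1.14 to 2.04), a call lost under both rescalings. The 9 histone sequences under the minimum, of H2A, H2B.3 and H4, had 1 to 22 reads per library. They pointed both ways: TC14010 (H2A) had 4 reads in winter, 12 in spring and 11 in retired bees, and NP9546647 (H2A) had 20, 5 and 9. As a class histones took 0.0203% of reads in winter, 0.0200% in spring and 0.0206% in retired bees.

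None of the 3 factors that carry or supply histones was called. Caf1 (TC16134), the histone-binding WD-repeat protein shared by several chromatin complexes, had 35.3 RPKM in winter, 35.8 in spring and 36.5 in retired bees. The chaperone asf1 (TC13285) had 23.8, 29.1 and 26.2 RPKM in the same order. The H4 transcription factor-like sequence (NP9546258) had 21.4, 15.6 and 14.7.

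**Figure D3:**
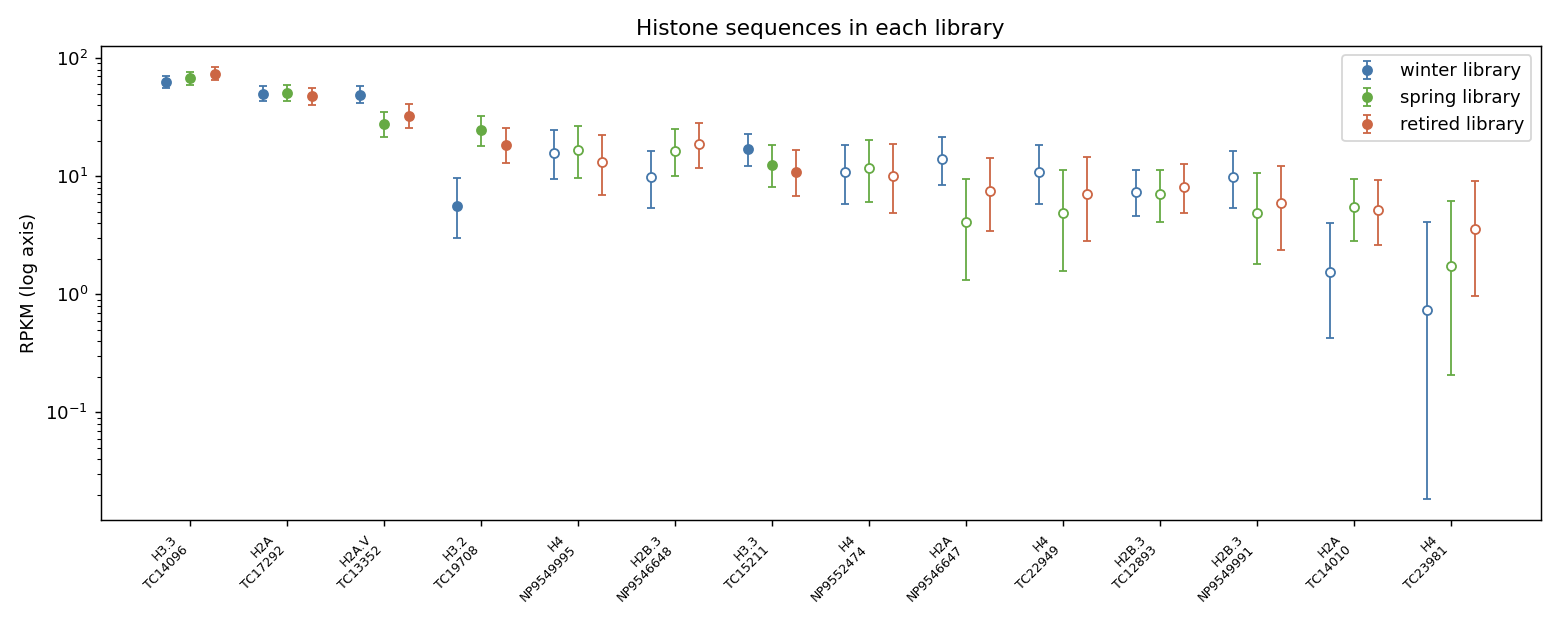
RPKM of the 14 histone sequences in the winter, spring and retired libraries on a log axis, with exact 95% Poisson intervals and open symbols for the sequences under the read minimum. TC19708 lies at 5.64 RPKM in winter, below 24.4 in spring and 18.4 in retired bees, and H2A.V shows the reverse order.

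Remodelers use ATP to slide or evict nucleosomes, and readers bind modified histones. Of 31 sequences past the minimum, 4 were lower in spring than in winter bees (12.9%), 5 in retired than in winter bees (16.1%) and 0 in retired than in spring bees, and none was higher. All sequences had 16.2%, 16.8% and 4.59% lower calls in those comparisons, and those with a protein match had 13.0%, 13.8% and 4.30%. Higher calls came to 4.26%, 2.98% and 3.79% of all sequences. In both comparisons with winter the lower calls of the remodelers thus lay near the background. Their median log2 ratios were -0.26, -0.32 and -0.08, against -0.26, -0.26 and -0.03 over all sequences. The ATPases and the SWI/SNF subunits were not called. Mi-2 (TC13381), the engine of the NuRD repressor complex, had 83.0 RPKM in winter, 69.2 in spring and 76.5 in retired bees. Iswi (TC12819), which spaces nucleosomes, had 27.3, 23.0 and 22.6, and the SMARCC2-like SWI/SNF subunit (TC16899) had 45.8, 42.0 and 36.7. A CHD1-like remodeler (TC12816) had 52.0 RPKM in winter, 40.0 in spring and 36.9 in retired bees, 1.30-fold lower in spring (1.18 to 1.44) and 1.41-fold lower in retired than in winter bees (1.27 to 1.57). The 5 sequences past the minimum with a bromodomain-containing protein 7-like match, a SWI/SNF subunit in mammals, ranged from 18.8 to 66.6 RPKM in winter, from 14.1 to 48.9 in spring and from 13.5 to 46.7 in retired bees. DNA methyltransferase 1-associated protein 1 (TC16371), a subunit of Tip60-type complexes, had 18.1, 16.2 and 15.2 RPKM in winter, spring and retired bees. BAZ1A (TC13515), a partner of Iswi-type ATPases, had 26.0, 26.3 and 23.5.

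BAZ2B-like sequences, named after a bromodomain protein that binds acetylated histones, made up 3 of the 4 lower calls between spring and winter and 3 of the 5 between retired and winter bees. TC20688 had 85.6 RPKM in winter, 54.2 in spring and 56.9 in retired bees, TC13498 had 55.2, 35.5 and 33.0, and NP9552245 had 48.5, 26.9 and 20.5. All of them were called lower in both comparisons with winter. Their ratios were 1.58-fold, 1.55-fold and 1.80-fold in spring, and 1.505-fold, 1.67-fold and 2.37-fold in retired bees. NP9552245 kept its calls under both rescalings (1.42 to 2.29 in spring, 1.82 to 3.11 in retired bees). The 3 sequences share 1 best match, so they may be pieces of the same gene and are not counted as separate evidence. Summed, they were 1.60-fold lower in spring than in winter bees (1.48 to 1.72) and 1.61-fold lower in retired than in winter bees (1.49 to 1.74). TC20688 and TC13498 lost their calls under both rescalings. The chaperone subunit chromatin assembly factor 1 B (NP9553728), which deposits histones at replication, was 1.68-fold lower in spring than in winter bees (1.05 to 2.75) and 1.82-fold lower in retired than in winter bees (1.11 to 3.04), both lost under rescaling.

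**Figure D4:**
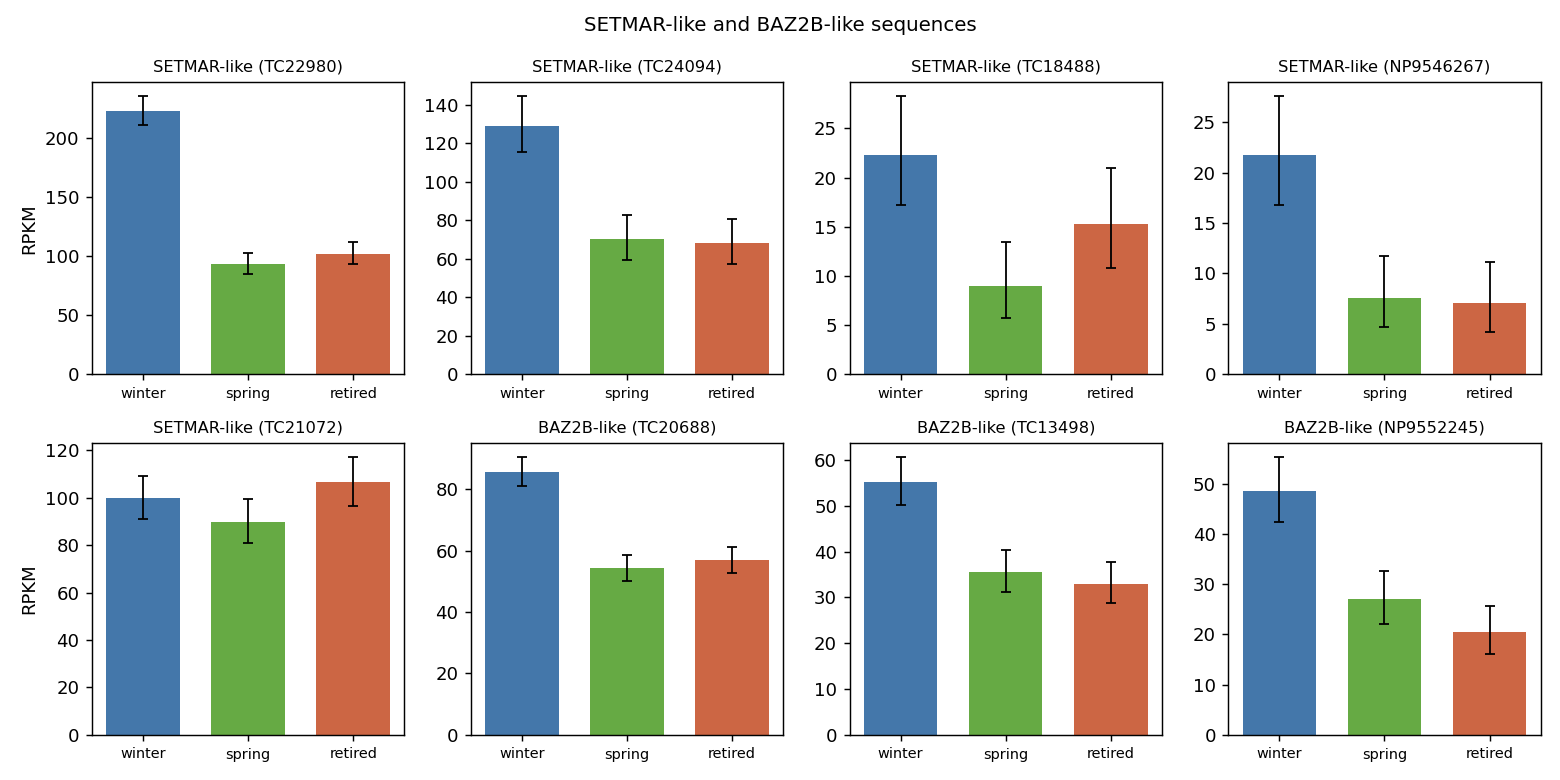
Levels in RPKM in each of the libraries for 5 SETMAR-like and 3 BAZ2B-like sequences, with exact 95% Poisson intervals and axes that start at 0. TC22980 stands at 93.5 RPKM in spring bees, against 223 in winter bees, whereas TC21072 stays between 89.9 and 107 RPKM.

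Genes of the same pathways that the word rule missed were listed by their match (60 sequences, 43 past the minimum). Of the 43, 2 were higher and 7 lower in spring than in winter bees, 0 higher and 2 lower in retired than in spring bees, and 2 higher and 8 lower in retired than in winter bees, with median log2 ratios of -0.29, 0.01 and -0.29. Their lower calls, 16.3% between spring and winter and 18.6% between retired and winter bees, lay near the 16.2% and 16.8% of all sequences. The higher calls, 4.65% in both comparisons with winter, stood against 4.26% for spring and 2.98% for retired bees over all sequences. Between retired and spring bees 4.65% were lower, against 4.59%, and 0 higher, against 3.79%. Among the 7 lower in spring than in winter bees, 1 was an F-box and WD repeat protein (NP9549431) that matched by its words alone. In the cycle that makes and clears the methyl donor S-adenosylmethionine, the 3 sequences were each above a ratio of 1 in spring over winter, with a median log2 ratio of 0.33. Adenosylhomocysteinase (TC13618), which removes the by-product that inhibits methyltransferases, had 15.4 RPKM in winter, 22.9 in spring and 24.7 in retired bees and was 1.60-fold higher in retired than in winter bees (1.22 to 2.11). The synthase of the methyl donor (TC15933) had 39.8, 49.8 and 44.7 RPKM in winter, spring and retired bees, without a call. A tRNA cytosine-5 methyltransferase (NP9551087) was 1.83-fold higher in spring than in winter bees (1.47 to 2.29). Both higher calls are relative to winter, so the rescalings, which raise every such ratio, could not end them.

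RuvB-like 2 (TC21173), an ATPase of the Ino80 and Tip60 complexes, had 7.11 RPKM in winter, 17.9 in spring and 10.9 in retired bees. The spring library was the high one: 2.52-fold higher in spring than in winter bees (1.76 to 3.66) and 1.65-fold lower in retired than in spring bees (1.18 to 2.32). The rescalings could not end the higher call. They kept the lower one, where they shift the log2 ratio by only 0.03 and 0.01. In retired bees RuvB-like 2 was 1.53-fold higher than in winter bees (1.02 to 2.30). Among the lower calls, a SMYD4-like methyltransferase (TC14707) was 2.38-fold lower in spring than in winter bees (1.39 to 4.26) and 2.92-fold lower in retired than in winter bees (1.62 to 5.57). A further SMYD4-like sequence (TC18377) was 2.06-fold lower in retired than in winter bees (1.08 to 4.15). PHD finger protein 2-like (NP9553982) was 1.74-fold lower in spring than in winter bees (1.31 to 2.33), and condensin subunit 1 (TC14447), which compacts mitotic chromosomes, was 1.52-fold lower in retired than in spring bees (1.10 to 2.12). The calls of TC18377, NP9553982 and TC14447 were lost when the median ratio was set to 1. For Su(var)3-9 (TC13731), the methyltransferase of silent heterochromatin, the 95.5 RPKM in winter, 87.4 in spring and 93.8 in retired bees were without a call.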

How the data were processed

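The authors deposited 1 table per library, giving per the file headers the count of uniquely mapped reads per sequence, its RPKM, its length, the fraction of it covered by reads and its best protein match. The aligner, counting tool and sequence release used, not given in the sources used here, could change these counts. Tables were merged by sequence identifier, with unlisted values taken as 0. Deposited RPKM were checked against count, length and library total. RefSeq names (Amel_HAv3.1) were found for 45 of 119 members by protein accession.

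With 1 library per group no test was possible. Folds are ratios of reads per library total with exact conditional binomial (Clopper-Pearson) 95% intervals, RPKM have exact Poisson intervals, and log2 ratios had 0.5 reads added. Calls needed 60 reads over the libraries and a 1.5-fold ratio. Intervals came from scipy 1.17.1, tables from pandas 2.3.3 with numpy 2.4.6 in Python 3.11.15, and plots from matplotlib 3.10.9. The code for the calls was run on simulated Poisson counts. Those held counting error only, and their planted changes were well above 1.5-fold. They cannot check variation between bees or calls near the threshold. PCR reads are not independent molecules.

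Named were all DNA methylation members, in each class the 2 highest and up to 3 called each way, well studied members, and up to 2 related genes each way. Other sequences were chosen after their values were seen. Members, lists and rules were chosen with earlier results of these data known. The classes were adjusted by reading match texts. Alternatives were other totals, minimums, thresholds, added reads and summing per protein.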

Additional observations from a re-analysis of the deposited data

How the results depend on the processing

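No paired analysis was possible because each group has 1 library, and for the same reason no replicate could be left out. For spring over winter, 1 member was called higher, against 3 with ratios rescaled to a median of 1, 3 with library totals that leave out the 60 most abundant and royal jelly sequences, 0 at a minimum of 150 reads, 2 with no minimum and 3 with no fold threshold. The 16 lower calls became 8 after rescaling to the median, 10 with those totals, 4 at a 2-fold threshold and 31 with no fold threshold. With no fold threshold 34.5% of all sequences were called lower. For retired over spring, the 0 higher calls became 1 after rescaling to the median and 3 with no fold threshold, and the 1 lower call became 0 at 2-fold and 3 with no fold threshold. For retired over winter, the 1 higher call became 4 under either rescaling, 0 at 150 reads and 2 with no fold threshold, and the 16 lower calls became 7 under either rescaling, 6 at 2-fold and 34 with no fold threshold. Apart from the 34.5% above, counts at other fold thresholds stand here without the share of all sequences. They show how the calls depend on the threshold and are no result about chromatin genes. The rescalings raise every ratio with winter in it by 0.26 (median) and by 0.21 or 0.22 (without royal jelly proteins) on the log2 scale. By construction this removes lower calls and cannot end higher ones. Ratios of retired over spring shift by only 0.03 and 0.01, so a call kept there is little of a check. Of the 16 lower calls, 8 were kept under both for spring over winter and 7 for retired over winter. The median difference between members and all sequences (-0.02, -0.02 and -0.05) ranged over the alternatives from -0.07 to 0.01 for spring over winter, from -0.04 to -0.01 for retired over spring and from -0.09 to -0.01 for retired over winter. No called ratio of a named member changed sign, but neither rescaling could have changed one, since the shifts are smaller than the 1.5-fold threshold. Of 105 named values, 19 moved by more than their counting interval after rescaling to the median and 12 without royal jelly proteins. The alternative without SETMAR-like sequences and the background restricted to protein matches were chosen after seeing the data. Sequences near 60 reads, such as KAT2A and the type B acetyltransferase, are limited by depth.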
